A study of Rattus norvegicus with 6 samples.

Results

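The motor arms, spokes and accessory structures of the sperm tail are described here through 61 genes measured by single-cell RNA sequencing of rat testis. They are all genes of the count tables whose symbol begins with Cfap, Dnah, Dnai, Dnal, Rsph or Drc followed by a number, out of 21170 genes listed. The names divide into 32 Cfap genes (cilia and flagella associated proteins), 12 Dnah genes (axonemal dynein heavy chains), 7 Rsph genes (radial spoke heads and stalks), 5 Dnai genes (dynein intermediate chains), 3 Drc genes (dynein regulatory complex) and 2 Dnal genes (dynein light chains). All 61 had at least 1 count in these libraries. Because the choice was made by symbol, axonemal genes with other names stand outside the 61 and are treated below as separate lists.

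The study compared testicular tissue of 3 SD rats exposed to frightening sound as a psychological stress (stressed 1, 2 and 3) with that of 3 normal SD rats (control 1, 2 and 3), and its title asks whether such stress disturbs sperm formation. Each library is labelled as 1 rat, and no age, genetic change or other treatment is named for either group. Cells were dissociated and captured on a microfluidic device with the Singleron GEXSCOPE kit. The spread between libraries therefore holds differences between rats as well as those of dissociation and sequencing.

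The axoneme is the microtubule core of cilia and of the sperm flagellum. Outer and inner dynein arms slide its outer microtubules past each other, radial spokes and the central apparatus pass mechanical signals to the arms, the nexin-dynein regulatory complex links neighbouring microtubules, and inner proteins stabilise the microtubule lumen. In the testis the flagellum is built from round spermatids onward, while many of its messenger RNAs are made earlier, during meiosis, and stored. Several axonemal proteins come in versions used mainly in airway cilia and versions used mainly in sperm.

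The files held 11744 cells. Stressed libraries had 409, 2506 and 2233 cells with 16756543, 93898869 and 74453303 total counts, and control libraries had 2342, 1801 and 2453 cells with 94130353, 73650164 and 114984746 total counts. Library stressed 1 stood apart by its small size. Cells were grouped by clustering on variable genes from which the 61 genes had been left out, so that these genes did not place the cells. The clusters formed 3 germ cell classes named from marker genes, with 1334 spermatocyte-like cells (meiotic cells), 4579 round spermatid-like cells and 5562 elongating spermatid-like cells. A further 269 cells, of which 226 came from stressed 1 and 37 from control 2, were led by Apoe, Fos and Cd74 together with elongating spermatid markers and were left unnamed. The classes were rebuilt here and may differ from those of the study. Libraries filled them unevenly. Spermatocyte-like cells numbered 26, 229 and 355 in stressed and 462, 158 and 104 in control libraries, and round spermatid-like cells numbered 139, 714 and 936 in stressed and 800, 706 and 1284 in control libraries. Elongating spermatid-like cells numbered 18, 1562 and 939 in stressed and 1078, 900 and 1065 in control libraries, and stressed 1, below the minimum of 20 cells, was left out of that class. In stressed 1 the 26 spermatocyte-like cells also carried stromal markers at a sum of 1259 CPM (counts scaled to the same total for every class and library), against 5.35 to 27.7 CPM in the control libraries. In the same cells macrophage markers summed to 743 CPM, against 114 to 170.3 CPM in control libraries, with Csf1r and Cd163 at 0 in the class, and peritubular myoid markers to 139.7 CPM, against 22.98 to 36.6 CPM, with Cnn1 at 0. Macrophage markers summed to 207 and 124 CPM in spermatocyte-like cells of stressed 2 and 3. They were higher in spermatids of both groups, at 1896 to 2596 CPM in round and 2668 to 3097 CPM in elongating spermatid-like cells. The part of these markers in the results below was not tested. Of the markers of supporting Sertoli cells, Amh was at 0 in all classes and the summed markers reached 41.1 CPM at most. Of 10 markers of the multiciliated epithelium that lines the ducts next to the testis, Pax8 was at 0 in all classes and Deup1 alone averaged 567, 1787 and 2324 CPM in the 3 classes in stage order. The sum was 513 to 936 CPM in stressed and 669 to 1147 CPM in control spermatocyte-like cells, 2077 to 2862 CPM in stressed and 1947 to 2215 CPM in control round spermatid-like cells, and 2665 to 3428 CPM in stressed and 2418 to 2807 CPM in control elongating spermatid-like cells; its part in the results was not tested. Only 2 cell barcodes were shared by more than 1 library, and 72 cells (0.613%) called as doublets were kept.

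Messenger RNA of the module was most abundant, as a share of all counts, in meiotic cells and lower in each later class. Summed over the 61 genes, it took 15063, 19229 and 20549 CPM in stressed and 18304, 17128 and 20454 CPM in control spermatocyte-like cells. In round spermatid-like cells the sum was 8702, 10180.3 and 11672 CPM in stressed and 10953, 9327 and 11789 CPM in control libraries. In elongating spermatid-like cells it was 3331 and 2828 CPM in stressed 2 and 3 and 2829.8, 2991 and 3297 CPM in the control libraries. The 3 ranges do not overlap, and within each class the stressed and control libraries did. Averaged over all libraries the sum was 18454 ± 2110.4 CPM in spermatocyte-like, 10437 ± 1259 CPM in round spermatid-like (SD, n = 6 each) and 3055 ± 245 CPM in elongating spermatid-like cells (SD, n = 5). A large part of it came from Cfap36, at 4415, 1883 and 41.0 CPM in the same order, and Cfap97, at 3436, 1466 and 161 CPM.

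The summed level followed this order in 7 of the 8 role groups, and in some of these 1 gene made up most of the sum in spermatocyte-like cells. The nexin-dynein regulatory complex genes summed to 1424 ± 144, 673 ± 56.6 and 239 ± 32.5 CPM in spermatocyte-like, round and elongating spermatid-like cells, of which Drc1 alone had 1335, 615 and 216 CPM. The inner arm heavy chains summed to 1538 ± 196, 393 ± 80.3 and 92.8 ± 12.1 CPM in the same order, with Dnah12 at 1079, 205 and 12.6 CPM. Their members Dnah3 (8.63, 72.1 and 7.91 CPM) and Dnah1 (18.3, 11.1 and 50.9 CPM) did not follow the order of the sum. The microtubule inner proteins summed to 2246 ± 529, 1229 ± 331 and 105 ± 30.6 CPM. The 4 central apparatus genes summed to 603 ± 101, 757 ± 70.8 and 745 ± 84.6 CPM, and there the means of the spermatid classes differed by less than their SDs. That sum was mostly Cfap69, at 485, 687 and 694 CPM. Cfap65 (27.2, 8.75 and 0.938 CPM) and Cfap74 (75.4, 13.9 and 11.9 CPM) had their highest mean in spermatocyte-like cells, and Cfap221 had 14.6, 47.6 and 38.8 CPM.

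**Figure D1:**
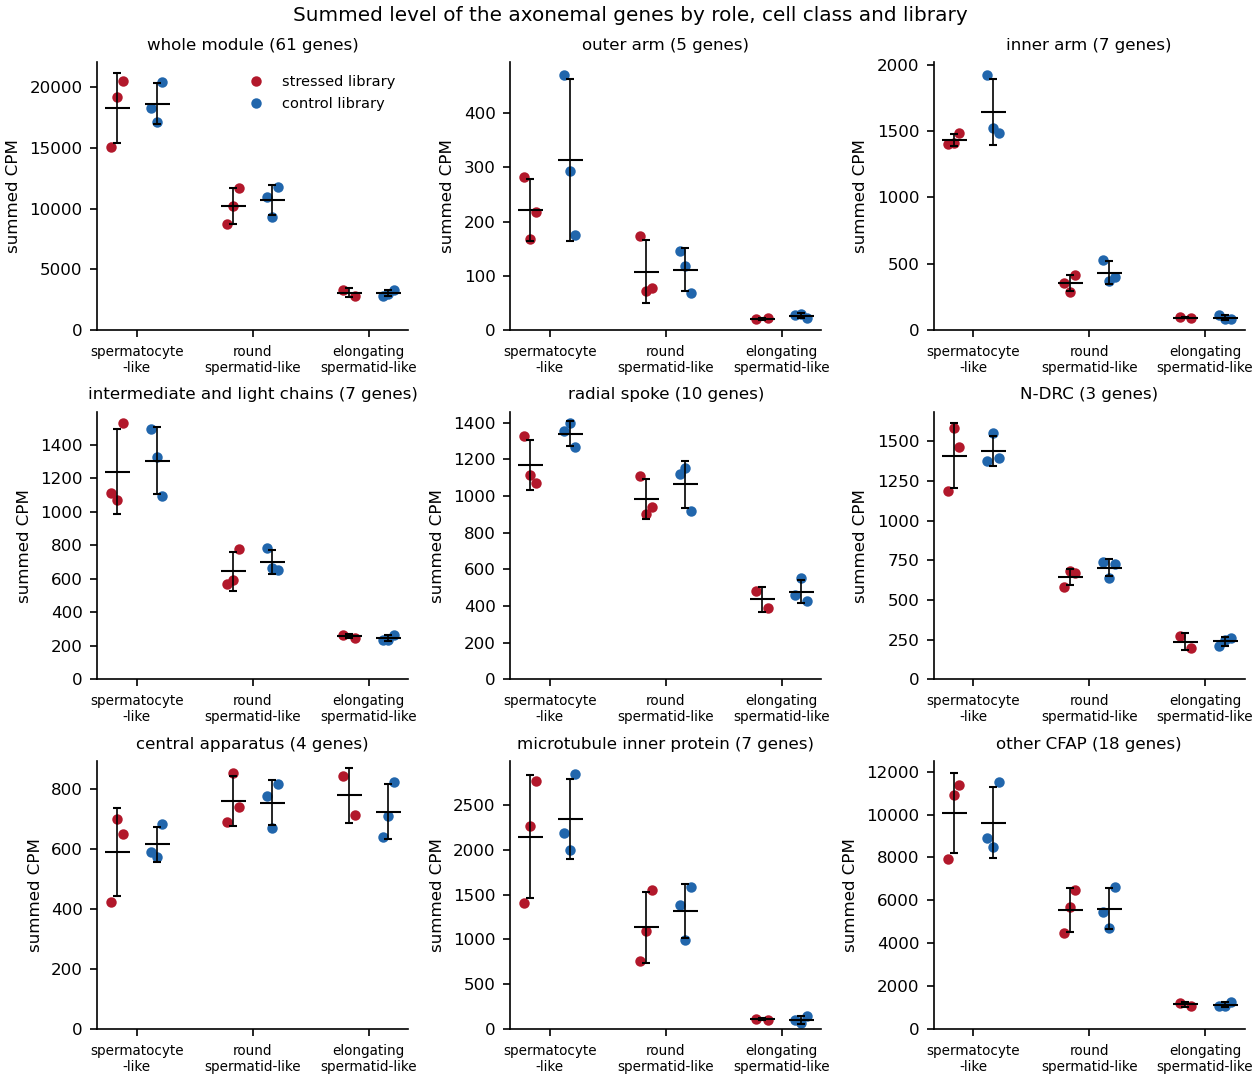
Summed CPM of the genes of each role group (panels) in spermatocyte-like, round and elongating spermatid-like cells, with 1 point per library, horizontal lines at the mean, error bars of 1 SD and stressed libraries left of control libraries. The sum over all 61 genes lies between 15063 and 20549 CPM in spermatocyte-like cells and between 2828 and 3331 CPM in elongating spermatid-like cells, and the stressed and control ranges of that sum overlap in each class.

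Gene by gene, 42 of the 61 had their highest mean CPM in spermatocyte-like cells, 17 in round spermatid-like cells and 2 in elongating spermatid-like cells. Of the 14416 genes compared the same way, 59.3% were highest in spermatocyte-like, 29.0% in round and 11.7% in elongating spermatid-like cells. The placing was shared by every library with all 3 classes for 36 of the 42 spermatocyte genes and 8 of the 17 round spermatid genes. Dnah1, an inner arm heavy chain, was highest in elongating spermatid-like cells in 5 of 5 libraries, and Cfap69, a central apparatus protein, in 3 of 5.

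Because a few genes take a large part of the RNA of late spermatids (the 10 most abundant genes held 26.3% to 29.3% of counts in elongating spermatid-like cells, 7.29% to 11.04% in round spermatid-like and 7.86% to 8.88% in spermatocyte-like cells), a stage difference depends on what it is scaled to. The quasi-likelihood test of edgeR, with the library as a block, was therefore run on trimmed-mean (TMM) scaled counts, on library totals and on counts per cell, which moved the median log2 change of all genes from 0.05 to -0.73 and -0.56 in the round against spermatocyte comparison and from -0.29 to -1.72 and -1.89 in the elongating against round comparison. Genes called the same way at an adjusted p under 0.05 under all 3 scalings are named higher or lower below, and log2 changes are on the TMM scale unless another is named.

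Between round spermatid-like and spermatocyte-like cells, 24 of the 59 members tested were lower under all 3 scalings (40.7%, against 27.1% of all genes tested) and 10 were higher (16.9%, against 27.2%). Between elongating and round spermatid-like cells, 37 of 60 were lower (61.7%, against 34.0% of all genes) and 1 was higher (1.67%, against 7.27%). The TMM scaling alone called 22 members higher and 24 lower in the round against spermatocyte comparison (35.1% and 27.1% of all genes called), library totals 10 higher (27.1%) and counts per cell 13 higher (28.5%). At the later step TMM called 13 higher and 37 lower (27.1% and 33.9% of all genes), and library totals and counts per cell 1 higher each (8.78% and 7.19%). Calls turned direction between scalings for Rsph10b at the first step, and for Cfap43, Cfap44, Dnai4, Drc3, Rsph10b and Rsph3 at the later one. The classes were cut from cells that mature gradually, so the sizes of these changes depend on where the clusters divide them. In the GRCr8 annotation 14 of the 61 genes overlap another gene of the count tables (Dnai3, Dnai4, Dnai7, Dnal1, Dnah11, Dnah17, Drc3, Rsph1, Rsph14, Cfap61, Cfap97, Cfap97d1, Cfap99 and Cfap157), and without the strand setting of the counting their reads and those of the neighbour cannot be told apart.

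**Figure D2:**
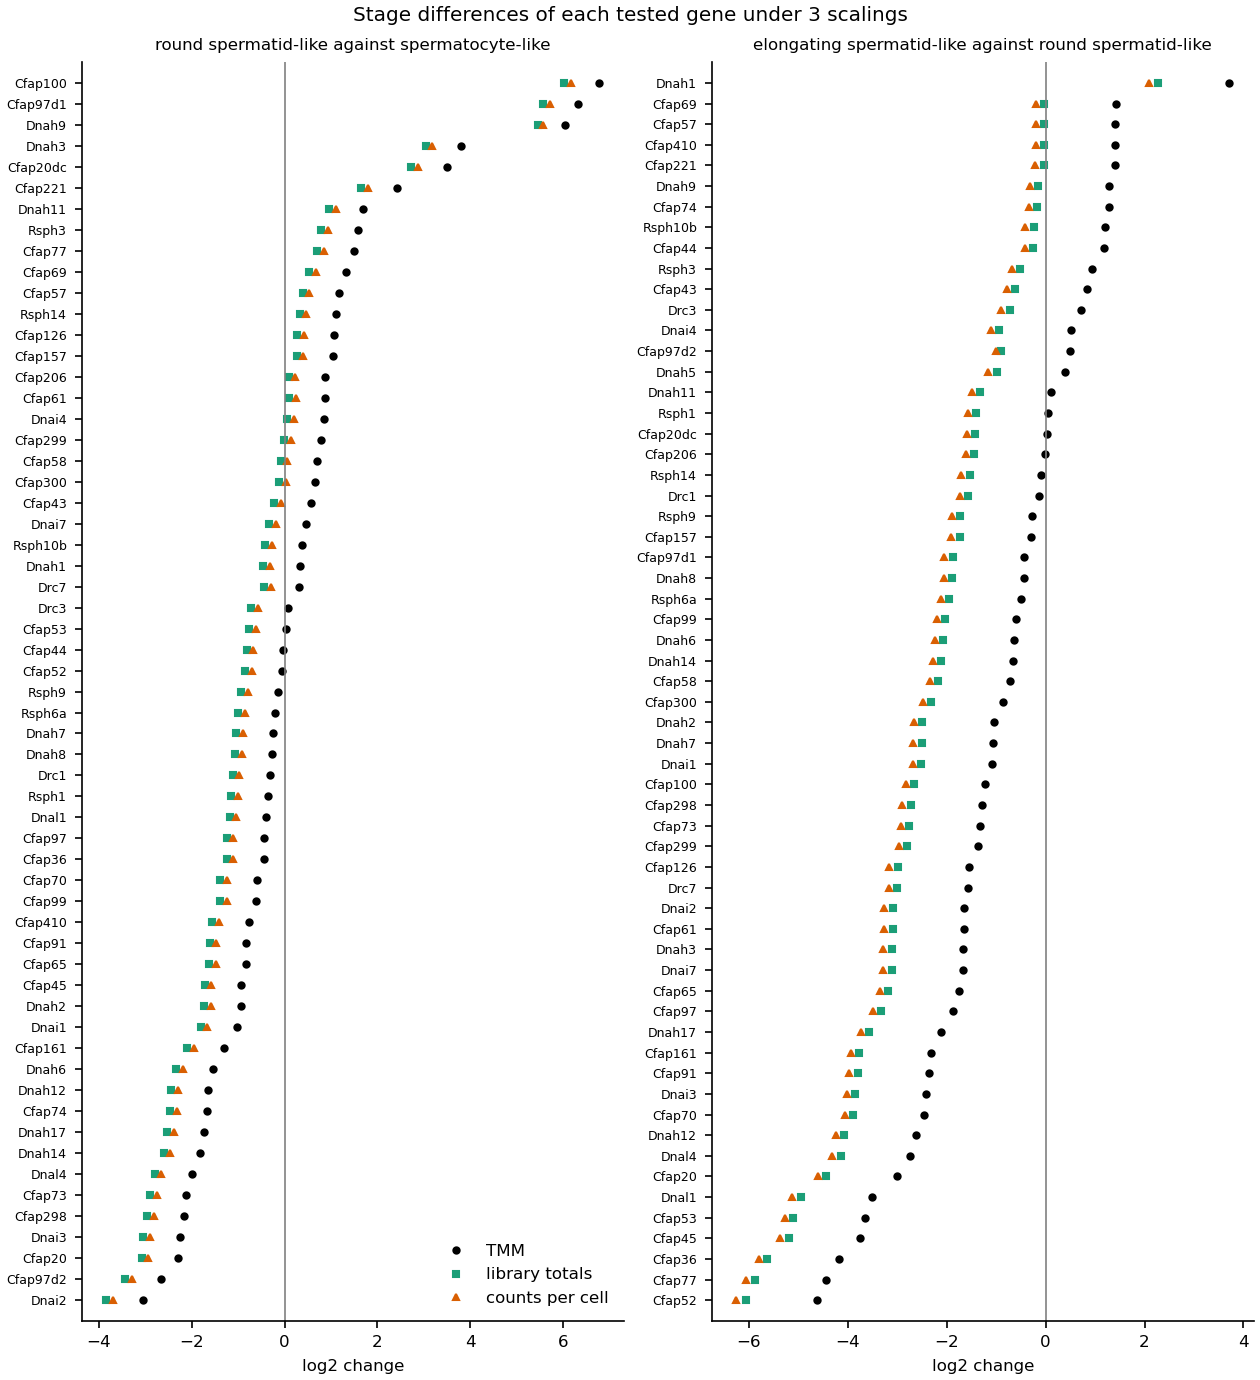
Log2 change of each tested gene of the module in the round against spermatocyte (left) and elongating against round (right) comparisons under TMM, library totals and counts per cell, with 1 point per gene. Under TMM the elongating against round changes run from -4.62 for Cfap52 to 3.71 for Dnah1, and Dnah1 is the 1 gene called higher under every scaling.

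Promoter sequences are shown because a known motif of ciliary genes can be read in them. The X-box is the inverted repeat bound by RFX factors, which drive many ciliary genes. RefSeq promoters (build GRCr8, 250 bases before to 50 bases after each transcript start) were found for 52 of the 61 genes. The X-box was searched on either strand as GTNNCCNNNGNAAC or GTNNCCNNGNAAC, patterns that share their outer letters and overlap the shorter pattern GTTGCC. It was present in 11 of the 52 (21.2%), against 3.72% of all 27457 genes with a promoter and 3.81% of the 12481 of them that the count tables list. A gene counted if any of its promoters matched. The 52 genes had 90 promoters and the 27457 genes 33469, so more promoters per gene were searched in the module, which raises its share. The shorter GTTGCC was present in 17 of the 52 (32.7%, against 13.1% of all genes), and the cAMP response element TGACGTCA, bound by the spermatid factor CREM, in 1 (Dnah6; 1.92%, against 1.9995% of all genes). A match is a stretch of letters and was not tested as a binding site. The 11 matches are shown with 10 bases on each side, 5′ to 3′ in the direction of the gene, with the X-box in capitals.

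Dnai2: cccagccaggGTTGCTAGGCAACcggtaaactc
Dnai1: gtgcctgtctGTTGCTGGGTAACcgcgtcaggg
Dnah2: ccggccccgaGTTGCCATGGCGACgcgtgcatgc
Dnah12: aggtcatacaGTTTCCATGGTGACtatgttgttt
Dnah9: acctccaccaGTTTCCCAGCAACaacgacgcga
Cfap298: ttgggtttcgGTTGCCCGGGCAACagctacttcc
Cfap44: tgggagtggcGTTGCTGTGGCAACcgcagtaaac
Cfap45: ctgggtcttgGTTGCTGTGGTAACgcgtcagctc
Cfap58: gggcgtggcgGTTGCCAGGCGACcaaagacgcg
Cfap61: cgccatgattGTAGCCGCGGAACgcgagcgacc
Cfap20dc: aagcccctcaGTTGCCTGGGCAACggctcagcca

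The windows lie at chr10:100258950-100258982 (plus strand) for Dnai2, chr5:61525970-61526002 (plus) for Dnai1, chr10:54766048-54766081 (minus) for Dnah2, chr16:1944680-1944713 (plus) for Dnah12, chr10:51364060-51364092 (minus) for Dnah9, chr11:43677590-43677623 (minus) for Cfap298, chr11:69789899-69789932 (minus) for Cfap44, chr13:87521808-87521841 (plus) for Cfap45, chr1:256743955-256743987 (plus) for Cfap58, chr3:153807523-153807555 (plus) for Cfap61 and chr15:18661374-18661407 (plus) for Cfap20dc. The outer 5 letters of the match form an inverted repeat in 4 of the 11 (Cfap20dc, Cfap298, Cfap44 and Dnai2), and Cfap61 holds a further match in its promoter. The 11 genes do not share 1 stage profile. Dnai1, Dnai2, Dnah2, Dnah12, Cfap298 and Cfap45 were lower in round spermatid-like than in spermatocyte-like cells, while Cfap20dc and Dnah9 were higher. The 250 bases upstream of the start are given for 2 genes that moved in opposite directions at that step, Dnai2 (chr10:100258772-100259021, plus strand) and Cfap20dc (chr15:18661312-18661561, plus strand), again with the X-box in capitals.

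Dnai2: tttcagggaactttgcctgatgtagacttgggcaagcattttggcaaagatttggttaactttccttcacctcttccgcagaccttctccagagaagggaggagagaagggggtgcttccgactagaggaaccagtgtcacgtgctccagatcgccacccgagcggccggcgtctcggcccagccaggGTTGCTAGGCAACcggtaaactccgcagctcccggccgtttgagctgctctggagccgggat
Cfap20dc: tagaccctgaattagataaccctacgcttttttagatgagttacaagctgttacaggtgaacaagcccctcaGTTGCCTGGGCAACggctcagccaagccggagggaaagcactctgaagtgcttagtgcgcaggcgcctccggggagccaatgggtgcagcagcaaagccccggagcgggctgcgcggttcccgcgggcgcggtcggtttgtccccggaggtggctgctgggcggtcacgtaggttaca

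Outer arm heavy chains carry the main motor of the beat. Dnah8 and Dnah17, the heavy chains of the sperm outer arm in human and mouse, were highest in spermatocyte-like cells. Dnah8 had 118 to 279.7 CPM (median 164) in spermatocyte-like, 52.7 to 151 CPM (median 76.99) in round and 16.8 to 25.5 CPM (median 18.3) in elongating spermatid-like cells. Dnah17 had 46.7 to 184 CPM (median 68.2), 7.93 to 24.9 CPM (median 12.8) and 0.656 to 1.90 CPM (median 1.13) in the same 3 classes, and the spermatocyte-like and round ranges did not overlap. Dnah17 was lower at both steps, with log2 changes of -1.74 ± 0.22 (SE; edgeR adjusted p = 5.64e-05) and -2.12 ± 0.22 (adjusted p = 3.25e-06). Dnah8 was lower under all 3 scalings at the later step only, at -0.45 ± 0.13 (edgeR adjusted p = 0.00961). At the first step Dnah8 was called lower on library totals (-1.07) and per cell (-0.93) but not by TMM (-0.28). Dnah5, Dnah9 and Dnah11, the outer arm chains of airway cilia, held 107, 508 and 1091 counts over all 6 libraries, and their highest class medians were 0.497, 1.63 and 2.58 CPM. Dnah9 had 2 counts in all spermatocyte-like cells together and 0.636 to 2.27 CPM (median 1.63) in round spermatid-like cells, where every library had counts. It was called higher under all 3 scalings, but with so few counts its fitted change is no measure of size.

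Inner arm heavy chains, which shape the bend of the flagellum, followed different courses. Dnah12 fell at both steps, with 904 to 1261 CPM (median 1075) in spermatocyte-like, 142 to 289 CPM (median 205) in round and 11.2 to 13.2 CPM (median 12.7) in elongating spermatid-like cells, and its libraries did not overlap between classes. The log2 changes were -1.64 ± 0.11 (SE; edgeR adjusted p = 4.28e-07) and -2.63 ± 0.14 (adjusted p = 6.7e-09). Dnah2 and Dnah14 were also lower at both steps, Dnah6 at the first and Dnah7 at the later one. Dnah3 took the opposite course at first. It had 4.33 to 12.98 CPM (median 8.75) in spermatocyte-like, 50.2 to 98.4 CPM (median 70.8) in round and 5.59 to 12.1 CPM (median 7.85) in elongating spermatid-like cells, so that every round spermatid-like value exceeded every other. Its log2 change was 3.80 ± 0.27 (adjusted p = 5.97e-07) at the first step and -1.67 ± 0.15 (adjusted p = 1.17e-06) at the later one. Dnah1, whose human counterpart is needed for a normal sperm flagellum, was the 1 member higher in elongating than in round spermatid-like cells under all 3 scalings. It had 2.57 to 37.02 CPM (median 17.7) in spermatocyte-like, 5.97 to 15.6 CPM (median 12.2) in round and 36.9 to 64.5 CPM (median 52.2) in elongating spermatid-like cells. Every elongating value exceeded every round value, and the log2 change was 3.71 ± 0.23 (adjusted p = 2.76e-08) by TMM, 2.27 on library totals and 2.10 per cell. At the round against spermatocyte step Dnah1 was called under none of the 3 scalings.

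Of the intermediate and light chains, 5 of 7 were lower in round spermatid-like than in spermatocyte-like cells (27.1% of all genes). At the later step 6 of 7 were lower (34.0% of all genes). Dnai2, an outer arm intermediate chain, had 100.2 to 209 CPM (median 143) in spermatocyte-like, 4.14 to 20.1 CPM (median 12.1) in round and 0.818 to 2.24 CPM (median 1.37) in elongating spermatid-like cells. The 3 classes did not overlap, and the log2 change of -3.06 ± 0.22 (SE; edgeR adjusted p = 6.25e-07) at the first step was the lowest of all called members. Dnai1, its partner in the outer arm, changed by -1.01 ± 0.14 (adjusted p = 8.09e-05), and Dnai3, an intermediate chain of an inner arm, by -2.26 ± 0.14 (adjusted p = 2.65e-07). The light chains Dnal1 and Dnal4 were lower at both steps, Dnal1 chiefly at the later one (-0.39 ± 0.13, then -3.52 ± 0.16). Dnai4 differed from these. It had 336 to 517 CPM (median 407) in spermatocyte-like, 404 to 469.7 CPM (median 424) in round and 203 to 248 CPM (median 228) in elongating spermatid-like cells, and its later step was 0.51 by TMM but -0.93 on library totals. Dnai7, at 66.04 to 92.7 CPM (median 81.04), 42.1 to 84.97 CPM (median 65.8) and 5.57 to 11.8 CPM (median 7.12) in the 3 classes, was lower at the later step.

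Of the 9 radial spoke genes tested at the first step, 1 was higher and 1 lower under all 3 scalings (27.2% and 27.1% of all genes). At the later step 4 of 9 were lower and none higher under all 3 scalings, near the 34.0% and 7.27% of all genes. There edgeR on TMM alone called Rsph3 and Rsph10b higher (27.1% of all genes). Rsph3, a stalk protein, was the gene higher in round spermatid-like cells, with 36.4 to 85.3 CPM (median 49.6) in spermatocyte-like, 64.2 to 147 CPM (median 95.6) in round and 48.7 to 74.8 CPM (median 65.1) in elongating spermatid-like cells and a log2 change of 1.57 ± 0.22 (SE; adjusted p = 8.82e-05). The spermatocyte-like and round ranges of Rsph3 overlapped. Cfap91, which anchors spokes at their base, was lower at both steps, with 25.99 to 65.8 CPM (median 45.7), 9.73 to 19.3 CPM (median 15.6) and 0.572 to 1.40 CPM (median 1.03) in the 3 classes. Rsph9, a spoke head protein, had 255 to 355 CPM (median 314), 125 to 220.1 CPM (median 164) and 43.9 to 61.2 CPM (median 52.4) and was lower at the later step (-0.29 ± 0.09; adjusted p = 0.018). The spoke head holds Rsph4a in airway cilia and Rsph6a in mouse sperm. Rsph6a had 28.2 to 91.8 CPM (median 39.7) in spermatocyte-like cells and 3.67 to 8.93 CPM (median 4.88) in elongating spermatid-like cells. Rsph4a held 25 counts over all 6 libraries and was too low to be tested.

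The remaining spoke genes followed no common course. Cfap206, at the base of a spoke, had 310.00 to 474 CPM (median 436) in spermatocyte-like, 360.4 to 493 CPM (median 428) in round and 118 to 185 CPM (median 156) in elongating spermatid-like cells. Rsph14 had 34.5 to 64.97 CPM (median 48.8), 47.2 to 70.9 CPM (median 61.2) and 16.4 to 26.1 CPM (median 21.4), and Rsph1, a head protein, had 65.9 to 102 CPM (median 81.3), 27.8 to 47.8 CPM (median 36.97) and 10.01 to 17.8 CPM (median 15.5). None of these 3 was called the same way under all scalings at either step. Cfap61, with 8.46 to 14.7 CPM (median 13.8), 6.81 to 18.3 CPM (median 14.7) and 0.894 to 1.79 CPM (median 1.33), was lower at the later step, and Rsph10b, with 191 to 275 CPM (median 248), 148 to 209.7 CPM (median 187) and 119 to 193 CPM (median 151), turned direction with the scaling at both steps.

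The 3 genes of the nexin-dynein regulatory complex were highest in spermatocyte-like cells. Drc1, part of the base plate of the complex, had 1123 to 1498 CPM (median 1329) in spermatocyte-like, 514 to 685 CPM (median 621) in round and 178 to 253 CPM (median 224) in elongating spermatid-like cells, with no overlap between classes. Its log2 change at the first step was -0.32 ± 0.10 (SE; edgeR adjusted p = 0.0199) by TMM, -1.12 on library totals and -0.98 per cell. Drc7 was lower at the later step (-1.56 ± 0.23; adjusted p = 8.85e-05), and Drc3 turned direction with the scaling.

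The central apparatus genes went both ways at the first step. Cfap69, required for sperm flagella in human and mouse, had 292 to 613 CPM (median 491) in spermatocyte-like, 588 to 769 CPM (median 702) in round and 595 to 777 CPM (median 671) in elongating spermatid-like cells. The round and elongating ranges overlapped almost wholly, and the later step was 1.42 by TMM but -0.03 on library totals and -0.20 per cell. Cfap221 was higher in round spermatid-like than in spermatocyte-like cells, with 21.8 to 76.3 CPM (median 43.5) in round spermatid-like cells against 6.34 to 22.9 CPM (median 15.04) in spermatocyte-like cells (2.43 ± 0.37 log2; adjusted p = 0.000183). Cfap65 and Cfap74 were lower. Cfap74 had 9.31 to 21.98 CPM (median 12.5) in round spermatid-like cells against 44.4 to 95.8 CPM (median 78.9) in spermatocyte-like cells (-1.67 ± 0.20 log2; adjusted p = 3.56e-05).

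All 7 microtubule inner protein genes were lower in elongating than in round spermatid-like cells under all 3 scalings (34.0% of all genes). Cfap52 fell to 0.156 to 1.33 CPM (median 0.463) in elongating spermatid-like cells, against 17.4 to 59.3 CPM (median 33.2) in round spermatid-like cells, a log2 change of -4.62 ± 0.29 (SE; edgeR adjusted p = 2.95e-08) that was the lowest of all called members. Cfap45 fell to 1.82 to 3.81 CPM (median 3.34) in elongating, against 74.4 to 130.5 CPM (median 111) in round spermatid-like cells (-3.75 ± 0.15; adjusted p = 7.57e-10). Cfap53 changed by -3.66 ± 0.10 (adjusted p = 1.42e-10). These 3 proteins line the lumen of the doublet microtubules, and none of their elongating values overlapped a round value. At the first step the group divided. Cfap20, which sits at the junction that closes the doublet, had 13.6 to 40.95 CPM (median 22.9) in round spermatid-like cells against 146 to 270.3 CPM (median 181) in spermatocyte-like cells and was lower, by -2.29 ± 0.20 log2 (adjusted p = 2.59e-06). Cfap45 and Cfap161 were lower too, and Cfap161 had 56.1 to 209 CPM (median 144) in round spermatid-like cells against 261 to 882 CPM (median 578) in spermatocyte-like cells. Cfap77 was higher, with 21.4 to 44.4 CPM (median 33.8) in round spermatid-like cells against 14.7 to 30.9 CPM (median 18.5) in spermatocyte-like cells and a log2 change of 1.49 ± 0.22 (adjusted p = 0.00013). Cfap126, also known as Flattop, had 192 to 749 CPM (median 513), 349 to 745 CPM (median 581) and 42.8 to 112 CPM (median 75.5) in the 3 classes.

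The 18 remaining CFAP genes included the highest log2 changes of the module at the first step. Cfap100, an inner arm regulator in the alga Chlamydomonas, had 2.17 to 7.25 CPM (median 5.39) in spermatocyte-like, 305 to 414 CPM (median 331) in round and 46.8 to 70.6 CPM (median 56.1) in elongating spermatid-like cells. No values overlapped between classes, and its log2 change of 6.78 ± 0.21 (SE; edgeR adjusted p = 2.06e-08) was the highest of the module at the first step. Cfap73, which forms a complex with Cfap100 in Chlamydomonas, ran the other way. It had 26.1 to 53.9 CPM (median 34.4) in spermatocyte-like, 1.83 to 8.03 CPM (median 5.25) in round and 0.421 to 1.32 CPM (median 0.851) in elongating spermatid-like cells, with a log2 change of -2.12 ± 0.25 (adjusted p = 3e-05) at the first step. Of the summed mean CPM over the 3 classes, round spermatid-like cells held 85.1% for Cfap100 and spermatocyte-like cells 86.2% for Cfap73.

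Cfap97d1, needed for sperm motility in mouse, followed Cfap100, with 0 to 7.13 CPM (median 5.59), 204 to 241 CPM (median 229) and 53.6 to 71.5 CPM (median 60.9) in the 3 classes and a log2 change of 6.31 ± 0.38 (SE; adjusted p = 1.92e-07) at the first step. Its 0 was in stressed 1, with 26 spermatocyte-like cells. The related Cfap97 had 2412 to 4805 CPM (median 3345), 1009 to 2038 CPM (median 1441) and 102 to 271 CPM (median 147) and was lower at both steps. Cfap97d2 was near 0, with 0 to 10.8 CPM in spermatocyte-like and 0 to 0.444 CPM in elongating spermatid-like cells. Cfap20dc, a protein with a Cfap20-like domain, had 10.8 to 61.99 CPM (median 45.7), 239 to 317 CPM (median 265) and 89.3 to 121 CPM (median 102) in the 3 classes and a log2 change of 3.50 ± 0.27 (adjusted p = 9.98e-07) at the first step, in contrast to Cfap20 itself.

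Cfap36 had 3719 to 4967 CPM (median 4468) in spermatocyte-like, 1372 to 2263 CPM (median 1942) in round and 24.6 to 55.8 CPM (median 41.5) in elongating spermatid-like cells. The classes did not overlap, and the log2 change at the later step was -4.19 ± 0.12 (SE; edgeR adjusted p = 2.02e-10). Cfap298, which takes part in dynein arm assembly, was lower at both steps, with 131 to 300.3 CPM (median 263), 20.5 to 42.2 CPM (median 29.7) and 3.02 to 7.10 CPM (median 5.13). Cfap43 and Cfap44, which form the tether of an inner arm, were called the same way under all 3 scalings at neither step. Cfap44 had 481 to 609.8 CPM (median 538), 262 to 348 CPM (median 307) and 229 to 301 CPM (median 249), and Cfap43 had 199 to 334 CPM (median 249.6), 169.7 to 298 CPM (median 233) and 110.5 to 188 CPM (median 122). For both, the later step was positive by TMM (1.18 for Cfap44) and negative on library totals (-0.26). Cfap57 behaved as Cfap69, at 162 to 210.01 CPM (median 202) in round and 155 to 212 CPM (median 199) in elongating spermatid-like cells, with 1.41 by TMM and -0.03 on library totals. Cfap410 had 19.2 to 36.05 CPM (median 25.1), 5.78 to 18.9 CPM (median 8.16) and 5.59 to 13.4 CPM (median 9.83) in the 3 classes and was lower at the first step.

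Of the CFAP genes not yet described, Cfap70, linked to the outer arm, was lower at both steps, with 76.3 to 140.3 CPM (median 118) in spermatocyte-like, 29.1 to 75.05 CPM (median 43.6) in round and 1.75 to 4.97 CPM (median 2.78) in elongating spermatid-like cells. Cfap58, Cfap157, Cfap299 and Cfap300 were lower at the later step under all 3 scalings. Cfap299 had 247 to 521 CPM (median 364), 252 to 500.1 CPM (median 390.2) and 41.3 to 83.5 CPM (median 48.5) in the 3 classes, and Cfap58, needed for sperm flagella in mouse, had 79.04 to 109 CPM (median 96.4), 73.8 to 105 CPM (median 90.7) and 14.6 to 30.3 CPM (median 20.9). Cfap157, a basal body protein needed for male fertility in mouse, had 51.8 to 76.5 CPM (median 58.7), 50.8 to 101 CPM (median 78.8) and 19.4 to 30.3 CPM (median 23.7). Cfap300, a factor of dynein arm assembly, had 15.3 to 21.2 CPM (median 18.5), 13.6 to 23.6 CPM (median 16.4) and 1.54 to 4.94 CPM (median 3.42). Cfap99 was low, at 4.16 to 10.98 CPM (median 6.35) in spermatocyte-like cells, and was called at neither step by TMM.

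Finer order within the classes appeared in the 13 clusters, arranged from early to late by their markers. The meiotic clusters held the peak of 36 genes, 18 in the earlier cluster led by Psma8 and Piwil1 and 18 in the later cluster led by Tpx2 and Aurka. The earliest round spermatid-like cluster, marked by Lrrc34, held the peak of 13. The remaining 12 were spread over 7 later clusters. By class, 59.3% of the 14416 genes compared were highest in spermatocyte-like cells. Shares of all genes by cluster were not computed, so these counts are not read as particular to the module. Cfap298 averaged 448 ± 31.3 CPM in the earlier and 149 ± 60.7 CPM in the later meiotic cluster (SD over libraries). Dnah3 averaged 0.442 ± 0.679 CPM in the earlier meiotic cluster, 13.7 ± 5.55 CPM in the later one and 81.7 ± 21.8 CPM in the Lrrc34 cluster, a gradual onset. Cfap97d1 came later, at 36.9 ± 7.81 CPM in the Lrrc34 cluster and 348 ± 42.8 CPM in the round cluster led by Tmem123. Cfap221 was at its highest in the last round cluster, at 116 ± 25.1 CPM. Dnah1 dipped, with 30.7 ± 18.3 CPM in the earlier meiotic cluster, 1.69 ± 1.35 CPM in the round cluster marked by Spam1 and 62.2 ± 26.4 CPM in the elongating cluster led by Tnp2. These cluster means are descriptions without a test. Some clusters were filled mainly by a few libraries, among them the round cluster marked by Spam1 (70, 138 and 121 cells in stressed and 102, 365 and 9 in control libraries).

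**Figure D3:**
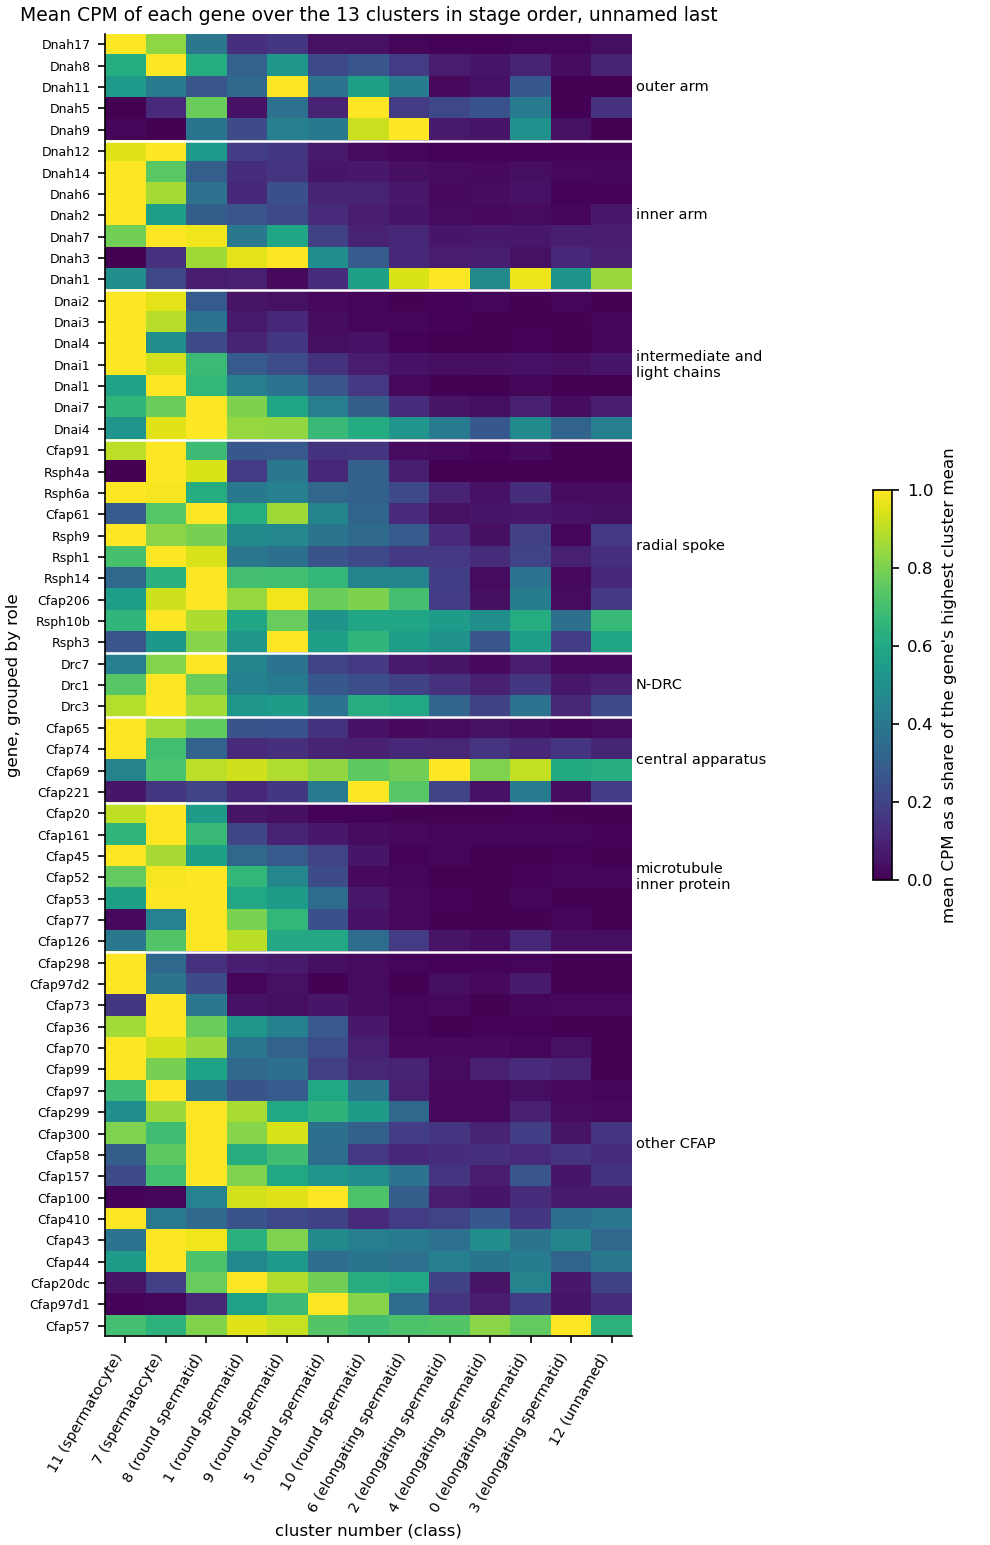
Mean CPM of each of the 61 genes (rows) in the 13 clusters (columns, in stage order, the unnamed cluster last), each row as a share of its highest cluster. The peaks of 36 genes fall in the 2 meiotic clusters at the left and 13 in the first round spermatid-like cluster, while Dnah1 has its highest share among the elongating spermatid-like clusters. The share of all genes peaking in each cluster was not computed.

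Genes of the same structures that carry other names were counted by the same rule, called under all 3 scalings. Over all genes tested, that rule called 27.2% higher and 27.1% lower at the first step and 7.27% higher and 34.0% lower at the later one. Of 18 dynein assembly factors, which fold and join the arms in the cytoplasm, 8 were lower and 0 higher in round spermatid-like than in spermatocyte-like cells (edgeR on TMM called 3 higher; 0 is the count under all 3 scalings). Zmynd10 averaged 128, 5.63 and 2.03 CPM in spermatocyte-like, round and elongating spermatid-like cells, with a log2 change of -3.83 ± 0.26 (SE; adjusted p = 4.71e-07), and Dnaaf4 averaged 106, 4.71 and 2.75 CPM. Of 22 microtubule inner protein genes with other names, 12 were higher and 2 lower at the first step and 15 were lower at the later one. Saxo1, a microtubule-stabilising protein, averaged 3.38, 258 and 16.9 CPM in the 3 classes (7.06 ± 0.47 log2; adjusted p = 3.77e-07), and Tekt5, a sperm tektin, averaged 3.34, 172 and 53.9 CPM.

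Among 16 dynein chains with other names, 4 were higher and 6 lower at the first step and 2 were higher and 6 lower at the later one. The 4 higher at the first step and the 6 lower at the later one are near the shares over all genes given above. Dynll2, a light chain shared with cytoplasmic dynein and other complexes, averaged 218, 2012 and 3806 CPM, and Dynlt5 averaged 10.5, 223 and 336 CPM in spermatocyte-like, round and elongating spermatid-like cells. Both were higher at both steps. Of 26 spoke, central apparatus and regulatory complex genes with other names, 4 were higher and 7 lower at the first step, the 7 being near the share over all genes, and 1 (Spag17, a central apparatus protein) was higher and 15 lower at the later one. Of 6 docking complex genes, which seat the outer arm, 2 were higher and 2 lower at the first step and 1 was higher and 3 lower at the later one, too few genes to read against those shares. Efcab1 rose at both steps (9.76, 62.7 and 98.2 CPM), and Odad3 fell at both (119, 19.1 and 2.34 CPM).

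Of 8 transcription factors of cilia and spermatids, Crem, Rfx3, Rfx4 and Sox30 were higher and Mybl1 and Tcfl5 lower in round spermatid-like than in spermatocyte-like cells. Rfx4, of the RFX family that reads the X-box printed above, averaged 11.2, 48.5 and 14.3 CPM (3.03 ± 0.21 log2 at the first step; adjusted p = 5.66e-07), and Crem averaged 296, 489 and 37.95 CPM in the 3 classes. Rfx2, the RFX gene with the most counts in the list, averaged 132, 54.1 and 29.8 CPM and was not called at the first step (-0.41 ± 0.18 log2; edgeR adjusted p = 0.0725), and Rfx1 averaged 13.9, 18.6 and 1.66 CPM. Mybl1, a regulator of meiotic genes, averaged 92.8, 30.9 and 3.11 CPM.

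Levels varied between animals within each class. The SD over libraries was 26.2% of the mean at the median of the 58 members with at least 100 counts in spermatocyte-like cells (range 5.71% for Cfap45 to 122%), against 40.8% for all genes. It was 26.0% in round spermatid-like cells (5.39% for Dnai4 to 87.5%), against 33.6% for all genes, and 27.7% in elongating spermatid-like cells (6.24% for Dnah12 to 81.2%), against 29.1%. Dnai4 in round spermatid-like cells had 415, 404 and 469.7 CPM in stressed and 431, 432 and 416 CPM in control libraries. The members' median was below that of all genes in each class, and the 2 sets were not matched for level.

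No gene of the module was called between stressed and control rats. The quasi-likelihood test of edgeR called 0 of 58 members in spermatocyte-like cells (0% of all 10114 genes called), 0 of 60 in round spermatid-like cells (0.0160% of 12503), 0 of 58 in elongating spermatid-like cells (0.00904% of 11068; stressed 2 and 3 against 3 controls) and 0 of 60 over all cells of a library (0.00689% of 14519). DESeq2 called 0 members in each as well. At an unadjusted p under 0.05 there were 1, 1, 0 and 1 members in the same order, against 1.68%, 2.22%, 2.39% and 1.38% of all genes. The median log2 change of the members was -0.09, -0.02, -0.02 and -0.13, against -0.0029, 0.01, -0.03 and -0.01 for all genes. By sign alone, 22 members were higher and 36 lower in spermatocyte-like cells (49.7% of all genes higher), 26 and 34 in round spermatid-like cells (50.8%) and 25 and 33 in elongating spermatid-like cells (47.2%). Over all cells, 17 were higher and 43 lower (48.9% of all genes higher), and there the share of each stage in a library enters the value.

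With 3 rats a group, and 2 stressed rats in elongating spermatid-like cells, a count of 0 does not show that the genes were alike in stressed and control rats.

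The members nearest to a difference are given with all their values. Cfap52 in spermatocyte-like cells had 35.7, 38.4 and 54.6 CPM in stressed and 92.2, 66.4 and 93.3 CPM in control libraries. The groups did not overlap, and the log2 change was -0.88 ± 0.35 (SE; edgeR adjusted p = 1). In round spermatid-like cells Cfap52 had 27.3, 17.4 and 33.8 CPM in stressed and 42.6, 32.5 and 59.3 CPM in control libraries, which overlapped, with a log2 change of -0.70 ± 0.33 (adjusted p = 0.998) and of -0.38 without control 3. Over all cells its log2 change was -0.93 ± 0.41 (adjusted p = 1).

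Dnah3 in spermatocyte-like cells had 4.33, 4.96 and 6.81 CPM in stressed and 11.99, 12.98 and 10.7 CPM in control libraries, also without overlap (-1.02 ± 0.55 log2; edgeR adjusted p = 1). Cfap298 was the 1 member with every stressed value above every control value in that class, at 269.6, 274 and 300.3 CPM in stressed and 229.9, 256 and 131 CPM in control libraries (0.55 ± 0.27 log2; adjusted p = 1). Libraries held the earlier meiotic cluster, where Cfap298 is more abundant, to different extents, with 12, 98 and 78 cells in stressed and 140, 61 and 17 in control libraries, while the later one held 14, 131 and 277 cells of stressed and 322, 97 and 87 cells of control libraries. Cfap298 and Dnah3, picked by their p-values in these same libraries, are also given within each meiotic cluster. The share of all genes without overlap within a cluster was not computed. The part of cluster make-up in these differences was not tested. Within the earlier cluster, stressed 1 and control 3 had too few cells. Cfap298 had 463.7 and 479.5 CPM there in stressed 2 and 3 and 439.1 and 407.8 CPM in control 1 and 2, without overlap. Within the later cluster, where stressed 1 had too few cells, Cfap298 had 139 and 241 CPM in stressed and 133, 160.2 and 72.6 CPM in control libraries, which overlap. Dnah3 had 8.49 and 8.60 CPM in stressed and 17.4, 21.2 and 12.8 CPM in control libraries there, without overlap. In the earlier cluster Dnah3 was near 0, at 0 and 1.43 CPM in stressed 2 and 3. It had 0.335 and 0 CPM there in control 1 and 2, which overlap the stressed values. Over the whole class, without overlap, there were 1 member higher and 3 lower of 58, against 1.95% and 6.08% of all genes, the other being Rsph1. Drc7 and Rsph6a, next by p, had log2 changes of -0.80 and -0.60 with overlapping groups. Without stressed 1 the log2 changes in this class were -0.74 for Cfap52, -0.89 for Dnah3 and 0.62 for Cfap298, and without control 3 that of Cfap298 was 0.35.

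In round spermatid-like cells the smallest p belonged to Cfap410, which had 6.71, 6.13 and 5.78 CPM in stressed and 18.9, 10.99 and 9.60 CPM in control libraries. No values overlapped, and the log2 change was -0.96 ± 0.34 (SE; edgeR adjusted p = 0.998). Dnah17, Cfap20 and Cfap73 followed with -0.75, -0.64 and -0.81. Members without overlap numbered 1 higher (Cfap57) and 4 lower (Cfap410, Cfap20, Cfap73 and Cfap99) of 60, against 1.98% and 5.82% of all genes. Libraries differed in which round clusters they held, with the cluster led by Tex29 and Sun5 at 2, 136 and 280 cells in stressed and 218, 4 and 494 cells in control libraries. The part of that difference in these values was not tested.

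In elongating spermatid-like cells Rsph14 had 25.8 and 26.1 CPM in stressed 2 and 3 and 21.4, 18.2 and 16.4 CPM in control libraries (0.54 ± 0.26 log2, SE; edgeR adjusted p = 1). Cfap36 had 55.8 and 43.8 CPM in stressed and 41.5, 24.6 and 39.3 CPM in control libraries (0.56 ± 0.28 log2). Both were without overlap, and Dnah3, Dnah9 and Dnai1 had log2 changes of -0.64, -1.04 and -0.65. Without overlap there were 2 members higher and 4 lower of 58, against 6.06% and 10.2% of all genes. Over all cells, Dnah9 and Cfap206 were lower without overlap, 2 of 60 against 4.33% of all genes, and 0 were higher, against 1.23%. Dnah5, Rsph6a, Cfap77 and Dnah2, next to Cfap52 by p over all cells, had log2 changes of 1.96, -0.58, -0.59 and -0.69, and Dnah5 rested on 75 counts in stressed and 32 in control libraries.

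**Figure D4:**
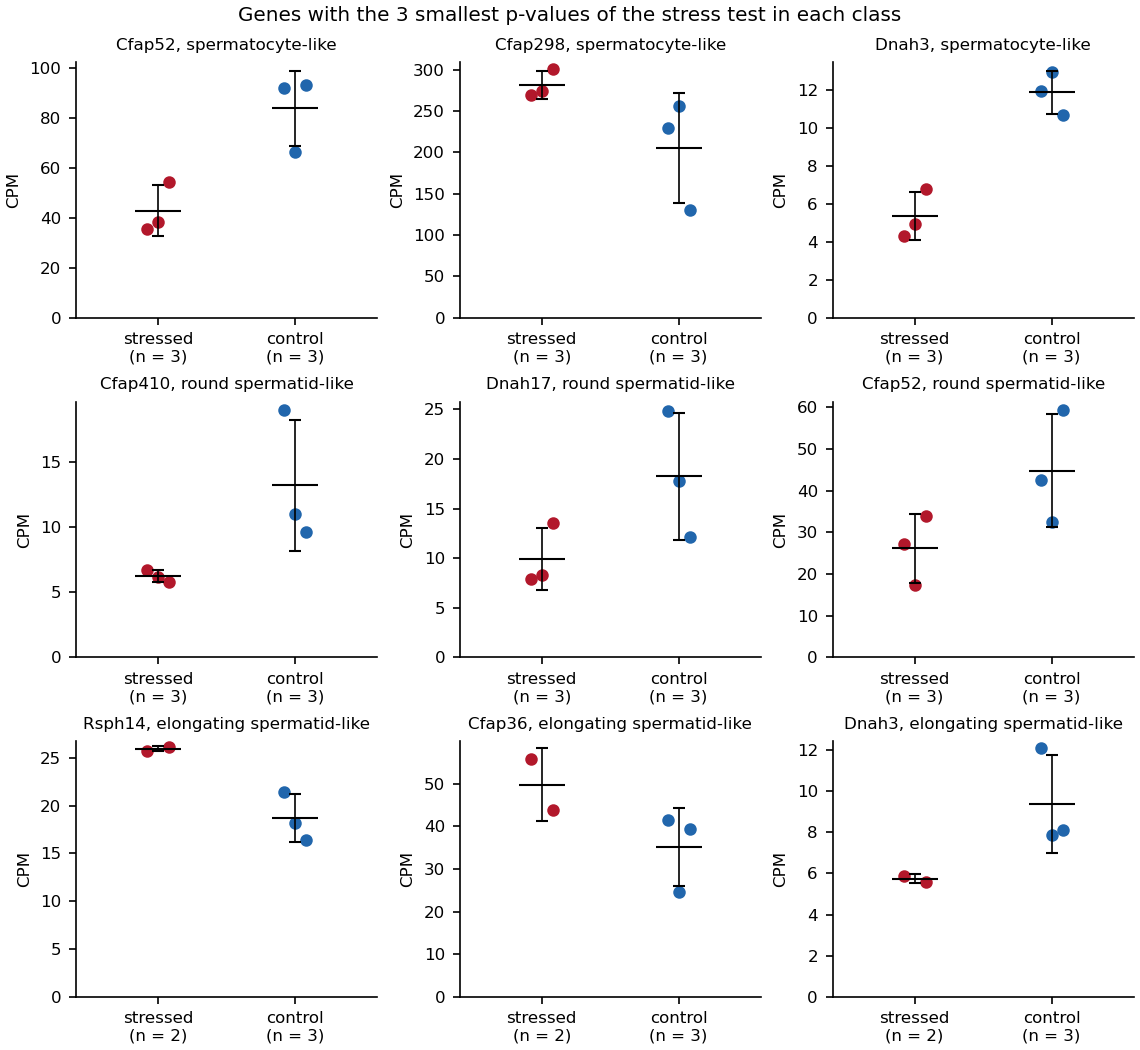
CPM in each library of the genes with the 3 smallest p-values in each class, stressed left of control, with 1 point per library, lines at the mean and error bars of 1 SD. Stressed values of Cfap52 in spermatocyte-like cells (35.7 to 54.6 CPM) lie below control values (66.4 to 93.3 CPM), and no gene shown passed the adjusted threshold.

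Whether stress altered the stage steps themselves was tested as an interaction. edgeR called 0 of 59 members for the round against spermatocyte step and 0 of 60 for the elongating against round step (0% of all genes in each), and DESeq2 called 0 in both. At an unadjusted p under 0.05 there were 1 and 3 members, against 2.24% and 2.36% of all genes. The differences of the members ran from -1.83 to 2.12 on the log2 scale at the first step. Dnah3 had the smallest p there, its log2 step being larger in stressed than in control rats by 1.08 ± 0.41 (SE; edgeR adjusted p = 1), and Cfap298 and Cfap20, next by p, differed by -0.59 and -0.66. At the later step the members with the smallest p, Cfap410, Cfap44 and Dnah6, differed by 1.00, -0.40 and 1.08 with adjusted p-values of 1.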

How the data were processed

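Single-cell libraries of 6 rats were analysed from the deposited tables, a count table and a normalised table for each. The deposited counts are whole numbers per gene and cell, per the file values; whether they are molecules or reads is not stated (the median nonzero value was 5 to 13). The deposited normalised values are on a natural log scale, ln(1 + 10000 × count / total of the cell), and were checked against the counts but not used further. The sources used here give no aligner, genome build or strand setting. Every deposited cell had at least 200 genes and under 20% mitochondrial counts, and none was removed. The range in the files was narrower than these limits, with mitochondrial maxima of 4.595% to 4.9952% per library. Genes per cell reached at most 3491, 3498 and 3499 in stressed 1, 2 and 3. They reached 3984, 3996 and 3559 in control 1, 2 and 3, so every stressed maximum lay below every control maximum. Whether gene-rich cells had been left out unequally before deposit, and the part of this in the stress comparisons, was not tested.

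Cells were clustered (scanpy 1.11.5; 2000 variable genes without the members, 30 components, 15 neighbours, Leiden resolution 1), and clusters were named from marker lists. Counts were summed per library and class (at least 20 cells) and tested with edgeR 4.0.16 in R 4.3.3 (TMM, filterByExpr, quasi-likelihood, Benjamini-Hochberg over all genes tested; threshold 0.05), with DESeq2 1.42.0 as an alternative. CPM scales counts to the class total of a library and is meant to compare 1 gene across classes. Where genes are summed or set against each other, CPM gives shares of counts only. Whether those shares follow numbers of molecules is not known here. Named genes were those with the smallest p or the largest change in each test and the leading genes of each role group; other members are given to cover the module. The members and lists were chosen with earlier results of these data known. Replicate numbers were not treated as pairs of rats in the main tests. Procedures were tested on simulated data with 100 genes changed 2-fold and 100 changed 4-fold. In spermatocyte-like, round, elongating spermatid-like and all cells the stress tests called 0%, 5%, 4% and 0% of the 2-fold changes. Of the 4-fold changes they called 30%, 39%, 42% and 33%. False calls were 2, 3, 1 and 6 of 32, 47, 47 and 39. The 2 stage tests called 28% and 37% of 2-fold and 55% and 64% of 4-fold changes. There, 2 of 85 and 10 of 111 calls were false. No column of the tables was left unmapped.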

Additional observations from a re-analysis of the deposited data

How the results depend on the processing

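Of 798 values recomputed under other settings (tool, filter, scaling, clustering resolution, doublets, each library left out), 781 were rated the same. They include counts of called members, which could change somewhat and still be so rated. Of the log2 changes of named genes at the stage steps, 335 kept direction and side of the threshold, 5 lost their call and 8 reversed. All 311 of the stress and interaction tests kept theirs, where no member had been called. At Leiden resolution 0.5, 16 members were higher and 28 lower at the first step, and 11 and 28 at the later one. The members called higher depended on the scaling. In the round against spermatocyte comparison they numbered 22 by TMM, 10 on library totals and 13 per cell, and in the elongating against round comparison 13 by TMM, 1 on library totals and 1 per cell. At the elongating step Cfap221 turned to -0.043 and -0.21, Cfap410 to -0.039 and -0.20, Cfap57 to -0.033 and -0.20 and Cfap69 to -0.028 and -0.20 (log2, library totals and per cell). Leaving out 1 library gave 19 to 22 higher and 21 to 25 lower members at the first step, and 13 higher and 34 to 38 lower at the later one. Between stressed and control rats 0 members were called under every setting run. Calls over all genes numbered 0, 2, 1 and 1 in spermatocyte-like, round, elongating spermatid-like and all cells by edgeR, 2, 8, 11 and 3 by DESeq2, and 0, 2, 28 and 0 with the replicate number as a block. The deviations of same-numbered rats correlated at -0.139 to 0.3, highest for number 3 in spermatocyte-like cells. They were not compared with those of differently numbered rats, so whether the numbers paired the samples is not settled. Where a group was left with 1 library, that library was assumed to vary like the others. Cfap97d2, near 0, lost its call at the first step under 5 settings. Precision was limited by 3 rats a group, by 26 spermatocyte-like cells in stressed 1 and by its absence from the elongating class.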

Other observations

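The 269 unnamed cells belong to no stage comparison. Summed over the 61 genes they held 2439 CPM in stressed 1 (226 cells) and 2331 CPM in control 2 (37 cells), below the 2828 to 3331 CPM of elongating spermatid-like cells. Cfap69 had 499.8 CPM in stressed 1 and 526 CPM in control 2, below its range of 595 to 777 CPM over the whole of that class. It averaged 498 ± 83.6 CPM (SD, n = 4) in the elongating cluster marked by Oaz3 and Smcp, so this level is not particular to the unnamed cells. Dnah1 had 57.6 CPM in stressed 1 and 48.2 CPM in control 2, within its range of 36.9 to 64.5 CPM. Cfap36 had 35.6 CPM in stressed 1 and 31.4 CPM in control 2.

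Promoters of the module held a median of 9 CG dinucleotides in 300 bases, against 7 for all promoters in the RefSeq table. Of the overlapping neighbours, Rsph14 has Gnaz, Dnah17 has Pgs1, Dnai4 has Mier1 and Cfap97d1 has Dusp3.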
